A study of Mus musculus with 16 samples.

Results

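The GFP-mid fraction of cultured mouse germline stem cells was compared with the GFP-low fraction of the same reporter line, as 2 of 12 RNA libraries in a series that also lists 4 ATAC-seq libraries, not analysed here. The libraries were identified by their labels, 1 a fraction, and the pair was chosen because earlier results showed similar myeloid RNA in both. The remaining sorted library, GFP-high, is given beside the pair, and 9 unsorted libraries of the series serve as background. All 3 sorted groups came from B6;CBA-Tg(Pou5f1-EGFP)2Mnn/J mice at postnatal day 5.5. In this transgene, green fluorescent protein is driven by regulatory sequence of Pou5f1 (Oct4), so GFP brightness reports that construct and not the gene itself. The cultures were founded from sorted germ cells that carried the reporter and lacked KIT, and were kept in serum-free medium with the growth factors GDNF, bFGF and EGF. The sorted cells had grown on Matrigel, a basement membrane extract, at 10 µg/cm2, without feeder cells or inhibitor. The 9 unsorted libraries differ in culture. Some are of cells on feeder cells, either untreated or given DMSO or several doses of the inhibitor UNC0638. Others are of cells on Matrigel, after transfer from feeders or at a stated density. Only 1, the mesenchymal-like culture, is labelled with 10 µg/cm2, so ranges over the 9 are not those of matched cultures. The labels do not state where the sort gates lay, or whether the fractions came from 1 culture.

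Germline stem cells are the cultured counterpart of the spermatogonia that sustain sperm production. GDNF, received by the co-receptor GFRA1 and the tyrosine kinase RET, maintains them through target factors such as ETV5, BCL6B and LHX1, while retinoic acid drives differentiation and induces Stra8. Pou5f1 encodes a transcription factor of pluripotent cells that undifferentiated spermatogonia also express.

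The upstream sequences of the 4 marker genes of this comparison are shown because the reporter borrows the first of them and the ratios of the genes between the fractions have opposite signs. Each is the 250 bases before the first listed RefSeq start (GRCm38.p6), 5′ to 3′ on the strand of the gene. Capitals mark AGGTCA, the nuclear receptor half-site to which retinoic acid receptors can bind, searched on both strands.

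Pou5f1: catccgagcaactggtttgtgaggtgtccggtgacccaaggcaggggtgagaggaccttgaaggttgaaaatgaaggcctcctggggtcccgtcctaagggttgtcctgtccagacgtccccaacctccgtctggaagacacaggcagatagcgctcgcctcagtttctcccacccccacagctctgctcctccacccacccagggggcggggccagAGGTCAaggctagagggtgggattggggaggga

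Stra8: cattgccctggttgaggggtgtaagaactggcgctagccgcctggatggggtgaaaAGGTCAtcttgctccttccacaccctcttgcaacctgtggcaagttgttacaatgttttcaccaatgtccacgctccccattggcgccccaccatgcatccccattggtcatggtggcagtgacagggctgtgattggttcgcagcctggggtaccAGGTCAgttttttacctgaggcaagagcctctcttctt

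Gfra1: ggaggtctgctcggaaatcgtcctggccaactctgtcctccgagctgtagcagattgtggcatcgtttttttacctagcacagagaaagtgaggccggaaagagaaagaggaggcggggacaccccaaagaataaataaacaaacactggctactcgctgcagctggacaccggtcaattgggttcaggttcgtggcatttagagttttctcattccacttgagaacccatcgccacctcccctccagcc

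Etv5: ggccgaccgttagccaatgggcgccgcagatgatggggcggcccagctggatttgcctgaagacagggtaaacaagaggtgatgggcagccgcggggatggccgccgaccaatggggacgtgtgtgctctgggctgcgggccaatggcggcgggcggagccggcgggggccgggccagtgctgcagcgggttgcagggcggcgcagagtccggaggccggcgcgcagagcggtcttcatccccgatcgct

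The Pou5f1 window (chr17:35505782-35506031, plus strand) held 1 AGGTCA, which begins 33 bases before the start. The Stra8 window (chr6:34920698-34920947, plus strand) held 2, which begin 194 and 38 bases before the start. Neither the Gfra1 window (chr19:58455399-58455648, minus strand) nor the Etv5 window (chr16:22439571-22439820, minus strand) held one. Among the 32851 entries of the table, searched over the same 250 upstream bases, 14.0% held the half-site and 1.36% held at least 2. The GC box GGGCGG, also searched on both strands, occurred 3 times in the Etv5 window, once in the Pou5f1 window and in neither of the others. It was present in 32.7% of all windows, and at least 3 copies in 8.47%. These matches describe letters and no binding was measured here.

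Depth was 7925487 expected counts in GFP-low, 12019672 in GFP-mid and 8774071 in GFP-high. Levels are given in CPM, that is, counts scaled to a common library size after TMM normalisation, and the floor used where a library has 0 counts, 3 counts, corresponds to 0.373 CPM in GFP-low and 0.238 in GFP-mid. Ratios are log2 of CPM + 1, GFP-mid over GFP-low, and a gene is called higher or lower from 2-fold. With 1 library a fraction there is no replicate check and no p-value. Brackets hold 95% Clopper-Pearson bounds for how the reads divided between the pair, which cover counting error only, because amplified reads are not independent molecules. They are computed without the pseudocount, which understates the ratios of low genes, so an interval can lie beyond its ratio. The filter kept the 14301 genes that averaged 1 CPM or more across all 12 libraries. Of these, 591 (4.13%) passed 2-fold, 494 higher in GFP-mid (3.45%) and 97 lower (0.678%). Their distribution over expression level is shown in the plot of ratio against level. The median ratio over all genes was 0, but it ran from 0.13 in the lowest of 6 level bins to -0.13 in the highest, and the share called higher from 4.82% to 1.43%. A single predicted locus took 1.19% of the counts in GFP-low and 2.97% in GFP-mid, and Lars2, a mitochondrial leucyl-tRNA synthetase gene, stood at 1559 and 4873 CPM. Their part in the excess of higher calls was not tested. The part of level and depth in the calls was not tested. Of 48 genes of the lists described here that passed 2-fold, 27 did not pass with a pseudocount of 5, among them Klf4, Klf5, Esrrb, Utf1, Pou3f1, Fgfr2, Spry4, Dusp4, Myc, Eomes, Dlk1, Asb4, Bhlhe40, Egln1, Mbd2, Acta2, S100a4, Ctgf, Phlda3, Bbc3, Tgfb1, Rsad2, Ccl7 and every collagen of the fibroblast list but Col1a1. With the deposited TPM 10 did not pass, Spry4, Myc, Ccnd1, Eomes, Col1a2, Col5a2, Col6a3, Bhlhe40, Ctgf and Rsad2.

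**Figure D1:**
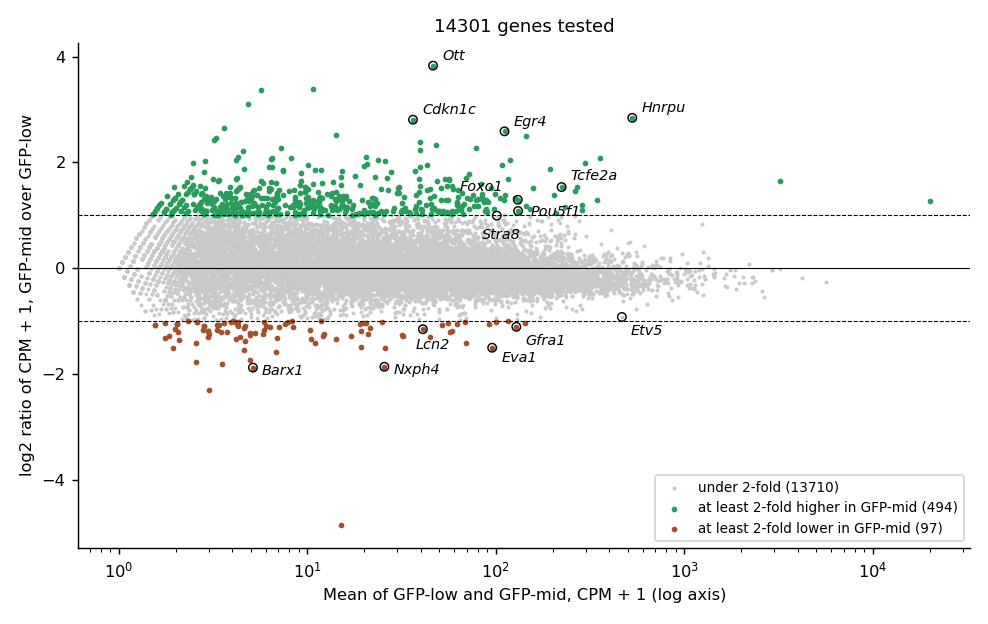
Each point is 1 of 14301 genes, with the mean of GFP-low and GFP-mid (CPM + 1, log axis) against the log2 ratio of GFP-mid over GFP-low; dashed lines mark 2-fold and circles mark labelled genes. Green points (494) lie above the upper line and brown points (97) below the lower one, with Gfra1 below and Pou5f1 above.

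Pou5f1, whose regulatory sequence drives the sorted reporter, followed the order of the gates. It stood at 83.2 CPM in GFP-low, 177 in GFP-mid and 367 in GFP-high. The step from low to mid was 1.08 [0.96, 1.22] and that from mid to high was 1.05 [0.98, 1.13]. In TPM, which is scaled to gene length, the levels were 114, 250 and 555. All 3 fractions lay above the 9 unsorted libraries, which ran from 43.3 to 76.2 CPM.

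Of the other 3 markers, Gfra1 passed 2-fold and Etv5 and Stra8 came close to it. Gfra1, the GDNF co-receptor, was at 174 CPM in GFP-low and 80.1 in GFP-mid, a ratio of -1.11 [-1.24, -1.0]. Etv5, an ETS factor that GDNF induces, was at 609 and 320 CPM, -0.92 [-0.99, -0.87], short of 2-fold. Stra8, the retinoic acid target needed for entry into meiosis, was at 66.6 and 133 CPM, 0.99 [0.86, 1.14], short of 2-fold here and past it, at 1.04, with library totals or TPM. In GFP-high these genes stood at 58.6, 223 and 179 CPM. GFP-low lay above the whole unsorted range for Gfra1 (35.1 to 138 CPM) and Etv5 (169 to 364 CPM), whereas GFP-mid lay inside it for both. Stra8 exceeded the highest unsorted library, 64.1 CPM, in both fractions. In bulk RNA, fewer cells of a type and less RNA per cell cannot be told apart, here or in any result below.

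Among pluripotency genes, 20 of 25 passed the filter, 5 passed 2-fold upwards and 1 downwards in GFP-mid (3.45% and 0.678% of all genes tested), and the median ratio was 0.21. Besides Pou5f1, the higher members were Klf5, Esrrb, Klf4 and Utf1. Klf5, a zinc finger factor of the naive pluripotency network, stood at 3.48 CPM in GFP-low and 11.5 in GFP-mid, 1.48 [1.13, 2.37]. Klf4, its relative and one of the reprogramming factors, stood at 7.09 and 17.6 CPM, 1.20 [0.88, 1.75]. Esrrb, an orphan nuclear receptor, was low in both libraries at 1.62 and 5.88 CPM, 1.39 [1.00, 2.84]. Utf1, a chromatin-bound protein of undifferentiated spermatogonia, stood at 1.99, 5.64 and 14.7 CPM across low, mid and high, 1.15 [0.71, 2.39] at the first step. Sox2, the usual partner of OCT4, was at 17.9 and 29.3 CPM (0.68 [0.43, 1.00]), with the unsorted libraries between 1.57 and 12.8 CPM. Nanog had 14 and 35 counts, with an interval that included 0. Tcl1, a coactivator of AKT, went the other way, from 190 CPM in GFP-low to 91.8 in GFP-mid, -1.04 [-1.16, -0.94], and fell just short of 2-fold with library totals.

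**Figure D2:**
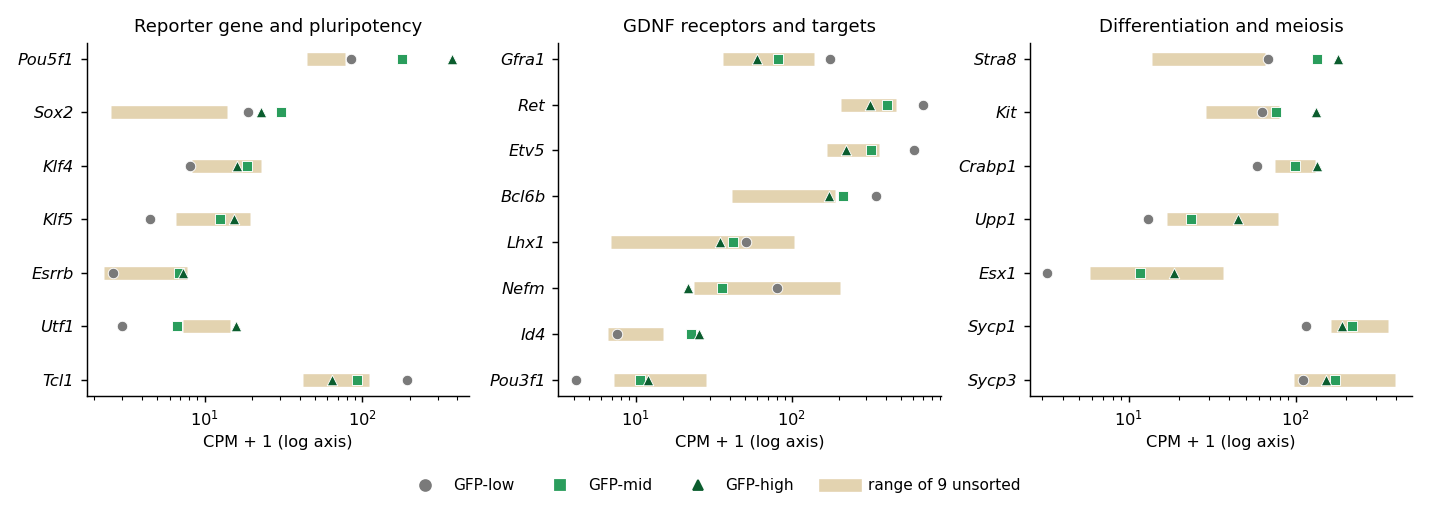
Level of 22 genes in CPM + 1 (log axis) in GFP-low, GFP-mid and GFP-high, 1 library each, with a bar for the range of the 9 unsorted libraries. Pou5f1 is above the bar in every fraction, and GFP-low is the highest fraction for Gfra1, Ret, Etv5 and Bcl6b and the lowest for Stra8 and Esx1.

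The GDNF pathway was lower in GFP-mid as a group, with a median ratio of -0.70 over the 17 of 19 genes that passed the filter (-0.32 with a pseudocount of 5), against 0 over all genes. The counting interval lay below 0 in 12 of them and above 0 in 2, where it did so in 25.3% and 22.2% of all genes tested. The summed level of the list was 2434 CPM in GFP-low, 1458 in GFP-mid and 1123 in GFP-high, with the unsorted libraries between 777 and 1775 CPM. GFP-low was above the unsorted range in 9 of the 17 genes, and GFP-mid in 5. How many of all genes tested lay above that range was not computed, so these counts do not set the list apart. Of the 17, 2 passed 2-fold downwards, as did 0.678% of all genes tested. They were Gfra1 and Nefm, a neurofilament gene that stood at 79.8 and 34.6 CPM (-1.18 [-1.38, -1.03]). Ret, the signalling receptor, was at 699 and 409 CPM, -0.77 [-0.83, -0.72]. Bcl6b, a transcriptional repressor needed for stem cell maintenance, was at 345 and 211 CPM, -0.70 [-0.78, -0.63]. The zinc finger factor Egr2 was at 182 and 103 CPM, -0.80 [-0.92, -0.70]. For the T-box gene T (Brachyury) the values were 9.82 and 5.40 CPM, -0.76 [-1.35, -0.38]. Lhx1 and Etv4 had smaller ratios, -0.28 and -0.32.

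A pair of the 17 genes rose, as did 3.45% of all genes tested. Id4, an inhibitor of DNA binding that marks the most stem-like spermatogonia, stood at 6.59 CPM in GFP-low, 21.5 in GFP-mid and 24.2 in GFP-high, 1.57 [1.28, 2.16] at the first step. Pou3f1, a POU factor downstream of GDNF, stood at 3.11, 9.69 and 11 CPM, 1.38 [1.01, 2.32]. For Id4 the unsorted libraries ran from 5.60 to 13.9 CPM, below both brighter fractions and around GFP-low. GFP-low was below the lowest unsorted library for Pou3f1, 6.25 CPM.

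Genes of FGF and ERK signalling went both ways. On this list, 24 of 25 genes passed the filter, 3 were higher and 4 lower in GFP-mid (3.45% and 0.678% of all genes tested), and the median was 0.00. The receptors Fgfr1 and Fgfr2 were both higher. Fgfr1 stood at 63.0 and 156 CPM, 1.29 [1.16, 1.45], and Fgfr2 at 1.24 and 5.32 CPM, 1.49 [1.13, 3.22]. Dusp5, a nuclear phosphatase of ERK, was at 61.0 and 161 CPM, 1.38 [1.25, 1.54]. Other feedback inhibitors of ERK differed in direction. Spry4 stood at 132 and 64.9 CPM, -1.02 [-1.16, -0.89], and reached 30.1 CPM in GFP-high, but did not pass 2-fold with library totals. Dusp4, another ERK phosphatase, stood at 25.9 and 10.7 CPM, -1.20 [-1.59, -0.95]. Dusp6, the cytoplasmic one, was at 361 and 211 CPM, -0.77 [-0.85, -0.70], short of 2-fold. The Sprouty-related inhibitors Spred1 (14.1 and 27.8 CPM, 0.94 [0.67, 1.30]) and Spred2 (33.8 and 47.6 CPM, 0.48 [0.28, 0.70]) had positive ratios, also short of it. Ccnd1, which encodes cyclin D1, stood at 122 and 58.3 CPM, -1.06 [-1.21, -0.93], and Myc at 3.48 and 1.11 CPM, -1.09 [-2.69, -0.67]. The immediate early genes Egr1 (288 and 278 CPM) and Fos (88.9 and 87.5 CPM) had ratios of -0.05 and -0.02, with intervals that included 0.

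Regulators of undifferentiated spermatogonia had no common direction. In the list, 29 of 30 genes passed the filter, 2 were higher and 1 was lower (3.45% and 0.678% of all genes tested), and the median was 0.03. Foxo1, the forkhead factor required for spermatogonial stem cell self-renewal, stood at 74.7 CPM in GFP-low, 184 in GFP-mid and 372 in GFP-high, 1.29 [1.17, 1.44] and then 1.01. The second higher gene was Utf1. Eomes, a T-box gene of a stem cell subset, was lower on few reads, 25 counts in GFP-low and 10 in GFP-mid, -1.20 [-3.19, -0.86]. Nanos2, an RNA-binding repressor of differentiation, stood at 26.1 and 15.1 CPM, -0.75 [-1.08, -0.50]. Zbtb16 (PLZF) was at 289 and 234 CPM, -0.30 [-0.38, -0.22], and the RNA-binding protein gene Lin28a at 74.4 and 93.3 CPM, 0.32 [0.18, 0.47]. Sox3, a factor of progenitor spermatogonia, had 0 counts in GFP-low, which allows up to 0.373 CPM, and 8 counts in GFP-mid, at least 1.70-fold higher.

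Differentiation genes had a median of 0.25 over 23 of 24 genes, and 1 gene, Esx1, was higher, where 3.45% of all genes tested were. Esx1, an X-linked homeobox gene, stood at 2.24 CPM in GFP-low and 10.6 in GFP-mid, 1.84 [1.52, 3.04]. Crabp1, a retinoic acid binding protein, was at 57.2 and 97.1 CPM, 0.75 [0.61, 0.92]. Upp1, uridine phosphorylase, was at 12.1 and 22.4 CPM, 0.84 [0.56, 1.24]. Kit, the receptor by whose absence the founding cells were sorted, was at 61.8 and 74.5 CPM, 0.27 [0.11, 0.43], and at 130 CPM in GFP-high. Ccnd2, a cyclin of differentiating spermatogonia, stood at 1033 and 683 CPM, -0.60 [-0.64, -0.55], against the list's median. Lmo4 (24.7 and 14.3 CPM, -0.75) and Kdm4d (5.47 and 2.54 CPM, -0.87) had lower ratios still. Over the list 10 counting intervals lay above 0 and 6 below, against 22.2% and 25.3% of all genes tested.

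No retinoid receptor passed 2-fold, but the counting interval of all 5 that passed the filter lay above 0, as it did in 22.2% of all genes tested. Rarg, the receptor of differentiating spermatogonia, stood at 22.3 CPM in GFP-low and 33.5 in GFP-mid, 0.57 [0.34, 0.85]. The ratios of Rara, Rxra, Rxrb and Rxrg ran from 0.21 to 0.57. Aldh1a3, an enzyme that makes retinoic acid, was lower, at 27.4 CPM in GFP-low, 9.06 in GFP-mid and 3.62 in GFP-high, -1.50 [-1.93, -1.26] at the first step. Aldh1a2 was at 36.2 and 33.4 CPM, with an interval that included 0.

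None of the 23 meiotic genes past the filter reached 2-fold, where 4.13% of all genes tested did, and their median was 0.09. For the 11 genes of the chromosome axis and synapsis the median was 0.34, with 7 counting intervals above 0 and 2 below, against 22.2% and 25.3% of all genes tested. Sycp1, the transverse filament of the synaptonemal complex, was at 114 and 215 CPM, 0.91 [0.81, 1.02], and GFP-low was below the lowest unsorted library, 161 CPM. Sycp2 (21.1 and 38.1 CPM) and Sycp3 (110 and 171 CPM), its lateral element proteins, had ratios of 0.82 and 0.64. The 12 recombination genes had a median of -0.02, and Dmc1, the meiotic recombinase, was at 15.7 and 16.7 CPM.

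Germ cell identity genes were detected in both fractions. In that list, 14 of 15 genes passed the filter and none passed 2-fold, where 4.13% of all genes tested did. The median was -0.13, with 4 counting intervals above 0 and 8 below, against 22.2% and 25.3% of all genes tested. The RNA helicase gene Ddx4 was at 633 CPM in GFP-low and 642 in GFP-mid. Dazl, a translational regulator, was at 1914 and 1726 CPM, -0.15 [-0.18, -0.12]. Across the 20 piRNA pathway genes past the filter, none reached 2-fold, and the ratios ran from -0.51 to 0.70. Nanos1 had the largest ratio of the germline list, at 24.5 and 47.0 CPM, 0.91 [0.71, 1.18].

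**Figure D3:**
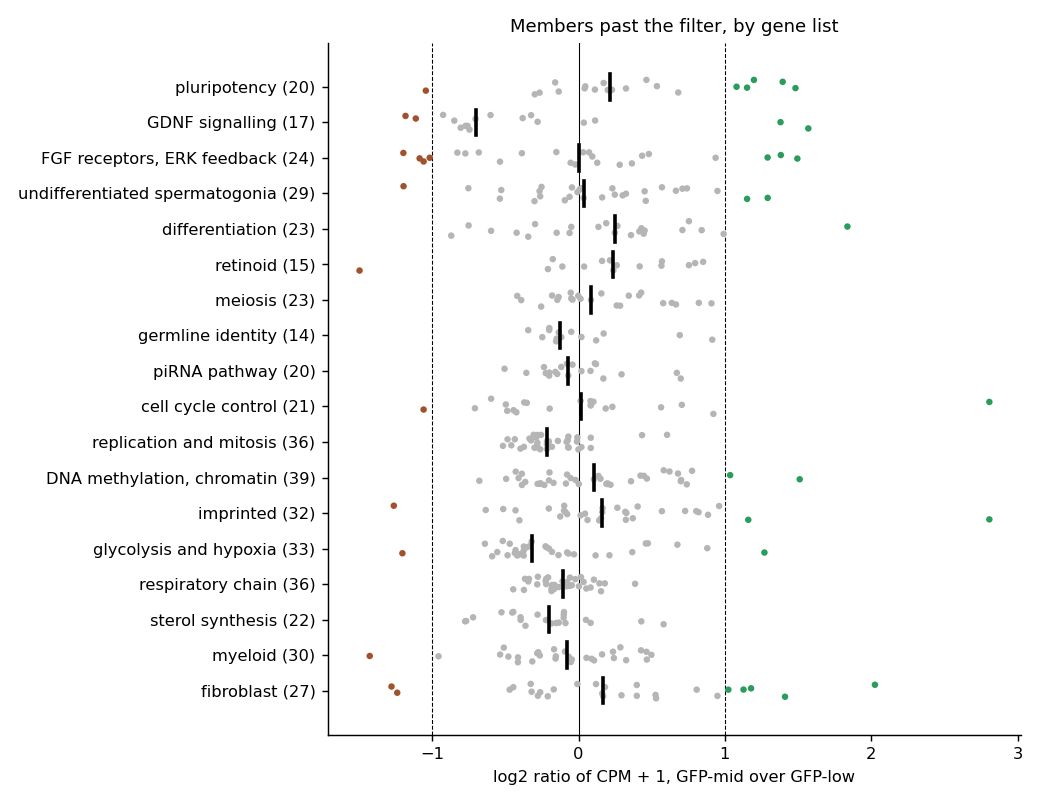
Each point is a gene past the filter, by its log2 ratio of GFP-mid over GFP-low, in 18 gene lists with the number of genes in brackets; black bars are medians, dashed lines 2-fold. The GDNF signalling bar lies at -0.70, that of differentiation at 0.25 and that of germline identity at -0.13.

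Cell cycle genes held the largest ratio of any list. Cdkn1c, an imprinted gene for a CDK inhibitor, stood at 8.08 CPM in GFP-low, 62.5 in GFP-mid and 83.4 in GFP-high, 2.81 [2.59, 3.34] at the first step. The unsorted libraries ran from 15.3 to 86.5 CPM, so GFP-low lay below all of them. Among 21 of 22 cell cycle control genes past the filter, Cdkn1c alone was higher and Ccnd1 alone was lower, against 3.45% and 0.678% of all genes tested. Genes of replication and mitosis were slightly lower as a group, with a median of -0.22 over 36 genes, 22 counting intervals below 0 and 2 above, against 25.3% and 22.2% of all genes tested. The median over all genes in the highest level bin was -0.13. Mcm5, a subunit of the replicative helicase, was at 561 and 392 CPM, -0.52 [-0.58, -0.46]. Mki67, the proliferation marker, was at 67.1 and 103 CPM, 0.60 [0.47, 0.76]. None of the 36 reached 2-fold, where 4.13% of all genes tested did.

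Glycolytic enzymes had a median of -0.37 over 19 genes, with 15 counting intervals below 0 and 1 above, against the same 25.3% and 22.2%. The median over all genes in the highest level bin was -0.13, and the part of level in this list was not tested. Pgk1 was at 59.8 and 39.4 CPM (-0.59 [-0.79, -0.42]) and Gapdh at 1474 and 1029 CPM (-0.52 [-0.55, -0.48]). Of the hypoxia response genes, Egln1, a prolyl hydroxylase that targets HIF for degradation, was higher (8.70 and 22.4 CPM, 1.27 [0.98, 1.76]). Bhlhe40, a repressor induced by hypoxia, was lower (4.23 and 1.27 CPM, -1.20 [-2.69, -0.84]). They were the only calls among 14 hypoxia response genes past the filter, against 3.45% higher and 0.678% lower of all genes tested. The medians of respiratory chain subunits (36 genes) and of sterol synthesis genes (22 genes) were -0.11 and -0.20. No gene passed 2-fold in either list, where 4.13% of all genes tested did.

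Of 39 genes for DNA methylation and repressive chromatin past the filter, 2 were higher and none lower, against 3.45% and 0.678% of all genes tested, with a median of 0.10. Suv39h2, an H3K9 methyltransferase of the male germline, stood at 48.0 CPM in GFP-low, 139 in GFP-mid and 118 in GFP-high, 1.51 [1.37, 1.69] at the first step. Mbd2, a reader of methylated DNA, stood at 5.22 and 11.8 CPM, 1.04 [0.67, 1.70]. Uhrf1, the partner of the maintenance methyltransferase, was at 781 and 488 CPM, -0.68 [-0.73, -0.63]. Dnmt1 itself was at 509 and 419 CPM, -0.28 [-0.34, -0.22]. The Polycomb subunits Suz12 (0.70) and Eed (0.68) had positive ratios with intervals above 0. Over the 15 Polycomb genes 5 intervals lay above 0 and 4 below, against 22.2% and 25.3% of all genes tested. Among 32 imprinted genes past the filter, Cdkn1c and Dlk1 were higher and Asb4 was lower, against 3.45% and 0.678% of all genes tested.

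The 15 named genes highest in GFP-mid over GFP-low, chosen by ratio with at least 50 counts in the higher library, were led by Ott, a multicopy X-linked testis gene whose reads may be shared between copies. Ott stood at 5.10 CPM in GFP-low and 85.6 in GFP-mid, 3.83 [3.62, 4.56]. Hnrpu (Hnrnpu), a nuclear RNA and scaffold binding protein, was the most abundant of the 15, at 128 CPM in GFP-low, 927 in GFP-mid and 922 in GFP-high, 2.84 [2.76, 2.94]. Egr4, an early growth response factor needed for male fertility, stood at 30.7, 189 and 264 CPM, 2.59 [2.43, 2.82]. Pcbp1, an intronless RNA-binding protein gene, stood at 42.8, 245 and 300 CPM, 2.49 [2.36, 2.68]. Rab5a, a small GTPase of early endosomes, stood at 25.6, 128 and 112 CPM, 2.28 [2.11, 2.54]. Cebpb, a leucine zipper factor, had 0 counts in GFP-low and 66 in GFP-mid, at least 14.1-fold higher. Pcdhgb2, a clustered protocadherin that shares exons with its neighbours, also had 0 counts in GFP-low, and 55 in GFP-mid. The others were 1700012H05Rik (Rbmxl2), Cdkn1c, Mesdc1 (Tlnrd1), Pdxp, Gmcl1, Actr5, Ubl3 and Kctd12, with ratios from 2.21 to 3.39.

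In 12 of these 15 genes GFP-low was the lowest of all 12 libraries, the exceptions being Gmcl1, Kctd12 and Pcdhgb2, for which GFP-low tied at 0 with an unsorted library. Over the 494 higher genes GFP-low was alone the lowest of the 12 in 236 (47.8%), against 10.3% of all genes tested, and GFP-mid was the highest in 51 (10.3%), against 5.11%. In GFP-high, 459 of the 494 were within 2-fold of GFP-mid, 21 were a further 2-fold higher, a call that 1.31% of all genes tested received at that step, and 14 were 2-fold lower, against 1.52%. These counts share the GFP-low or GFP-mid library with the call itself and are a description. GFP-low was also the shallower library, and the part of its depth or RNA quality in these genes was not tested.

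**Figure D4:**
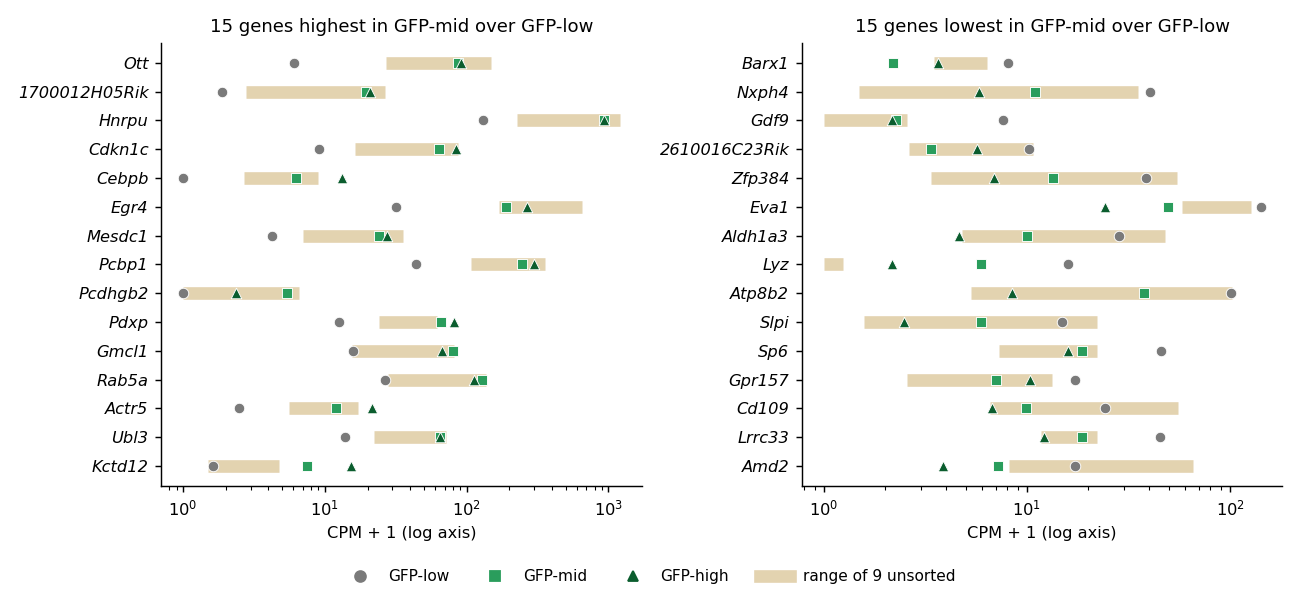
The 15 genes with the highest (left) and the 15 with the lowest (right) ratio of GFP-mid over GFP-low, in CPM + 1 (log axis), with a bar for the range of the 9 unsorted libraries. On the left, GFP-low is left of the bar for most genes and GFP-mid and GFP-high lie within 2-fold of each other for 12 of the 15; on the right, GFP-low is right of the bar for 8 genes, among them Gdf9, Sp6 and Eva1.

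The 15 named genes lowest in GFP-mid began with Barx1, a homeobox gene at 7.09 CPM in GFP-low and 1.19 in GFP-mid, -1.88 [-3.50, -1.73]. Nxph4, which encodes a secreted neurexophilin, stood at 39.2, 10.0 and 4.79 CPM across low, mid and high, -1.87 [-2.28, -1.67]. Gdf9, a growth factor best known from oocytes, stood at 6.59 and 1.27 CPM, -1.74 [-3.28, -1.55], and no unsorted library exceeded 1.57 CPM. Eva1 (Mpzl2), an adhesion molecule, had the most reads of the 15, at 140 CPM in GFP-low, 48.7 in GFP-mid and 23.2 in GFP-high, -1.51 [-1.67, -1.38]. Atp8b2, a phospholipid flippase, stood at 99.5, 36.8 and 7.44 CPM, -1.41 [-1.60, -1.27]. Zfp384, Sp6, Gpr157, Cd109, Slpi, 2610016C23Rik (Mtfr2), Lrrc33 (Nrros), Aldh1a3, Lyz (Lyz1) and Amd2 completed the set, with ratios from -1.59 to -1.25. Amd2 has a near-identical copy, and Lyz is close to Lyz2, so reads may be divided between them. GFP-low was the highest of the 12 libraries in 8 of the 15. It was so in 36 of the 97 lower genes and in 1580 of the 14301 genes tested. The 15 were picked with the GFP-low library itself, so these counts are a description.

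Both fractions held RNA of myeloid cells, at similar levels, which is why the pair was chosen and is given as a description. The 40 myeloid genes summed to 2379 CPM in GFP-low and 2230 in GFP-mid, against 413 in GFP-high and 124 to 191 in the 9 unsorted libraries. Of the 30 genes past the filter, 27 lay above the unsorted range in GFP-low and 27 in GFP-mid. The share of all genes above that range was not computed. The filter averages over all 12 libraries, so F13a1, at 0 CPM in every unsorted library, passed it through the sorted ones alone. Lyz2, the lysozyme of macrophages, was at 1511 and 1357 CPM, -0.15 [-0.19, -0.12]. The macrophage receptor gene Csf1r was at 52.1 and 50.4 CPM. The complement genes C1qa (38.4 and 53.4 CPM) and C1qc (53.1 and 75.4 CPM) had ratios of 0.46 and 0.50, whereas Cybb (41.8 and 28.5 CPM) and Fcer1g (43.6 and 30.3 CPM) had ratios of -0.54 and -0.51. Of the 30 intervals, 5 lay above 0 and 8 below, near the 22.2% and 25.3% of all genes tested. Lyz1 alone passed 2-fold, and the median of the 30 ratios was -0.08. From mid to high the median was -2.20 and 26 of the 30 were at least 2-fold lower, where 1.52% of all genes tested were. S100a9 and Itgax had 0 counts in both fractions. Whether myeloid RNA has a part in single ratios was not tested.

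Fibroblast genes summed to 386 CPM in GFP-low and 383 in GFP-mid, below the unsorted libraries (597 to 11886 CPM). Within the list, 5 of 27 genes past the filter were higher, all of them collagens, and 2 were lower, against 3.45% and 0.678% of all genes tested. Col1a1, the main chain of type I collagen, stood at 22 CPM in GFP-low, 51.1 in GFP-mid and 105 in GFP-high, 1.18 [0.97, 1.46]. The other 4 collagens, Col3a1, Col5a2, Col1a2 and Col6a3, had under 10 counts in GFP-low. Col3a1 had 1 count in GFP-low and 45 in GFP-mid, a log2 ratio of 2.02 with a counting interval of 2.29 to 10.2. Acta2, smooth muscle actin, had 13 counts and 1 count, -1.28 with a counting interval of -9.76 to -1.61, and S100a4, a calcium-binding protein, 26 and 10 counts, -1.24. Genes of Sertoli, Leydig and peritubular cells summed to 174 and 173 CPM, of which Tjp1, a junction gene of many cell types, gave 154 and 148 CPM. Without it the sums were 20.0 and 24.5 CPM, and 7 of the 27 found in the tables had 0 counts in GFP-mid, among them Fshr, Insl3 and Cyp17a1. Endothelial genes summed to 115 and 75.2 CPM, of which Plvap, on the GDNF list as well, gave 86.0 and 47.3 CPM. Erythroid and lymphoid genes summed to 11.2 and 10.1 CPM, with 8 of 12 at 0 counts in each fraction. The summed levels are drawn in the plot of marker lists.

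**Figure D5:**
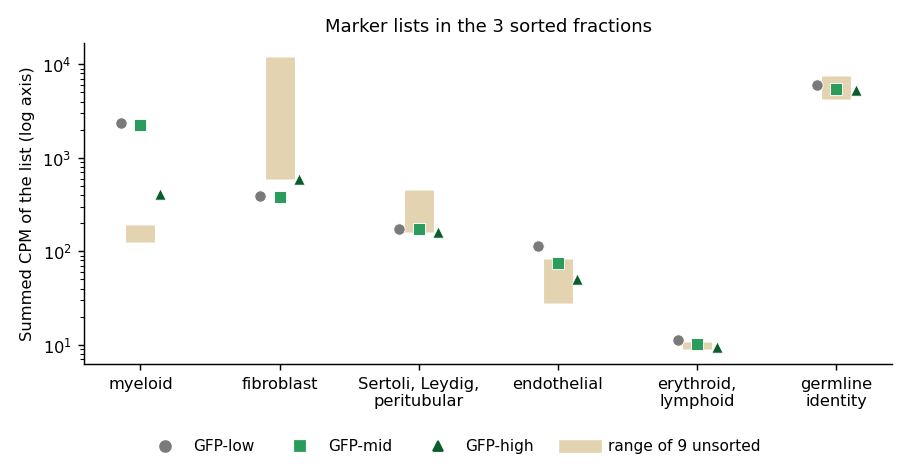
Summed CPM (log axis) of 6 marker lists in GFP-low, GFP-mid and GFP-high, with a bar for the range of the 9 unsorted libraries. The myeloid points of GFP-low (2379) and GFP-mid (2230) sit above the bar and far above GFP-high (413); the germline identity points of all 3 fractions sit in the bar.

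Of 19 epithelial junction genes past the filter none reached 2-fold, where 4.13% of all genes tested did, too few to set the list apart. Cdh1, E-cadherin, was at 9.70 and 9.85 CPM. Of 25 genes of epithelial to mesenchymal transition, 1 was higher and 2 were lower, against 3.45% and 0.678% of all genes tested. Tcf3, listed as Tcfe2a, an E-protein transcription factor, stood at 114 CPM in GFP-low, 330 in GFP-mid and 418 in GFP-high, 1.53 [1.44, 1.65]. The lower genes were S100a4 and Ctgf, a secreted matrix protein with 20 and 9 counts. Vim, the intermediate filament vimentin, was at 15.8 and 11.1 CPM, -0.47 [-0.86, -0.15], and Fn1, fibronectin, at 211 and 168 CPM, -0.33 [-0.42, -0.24]. The unsorted culture at the same Matrigel density held 1480 CPM of Vim and 2189 of Fn1.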

How the data were processed

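Per the file headers, the authors deposited 1 table per library with the expected count, TPM and FPKM of each of 27128 genes. Reads were processed with Trim Galore and RSEM on mm10, per the submitters' processing notes. The aligner and the annotation release are not given in the sources used here. The expected counts deposited by the authors were rounded to whole numbers, since 9.12% of genes in GFP-low and 10.7% in GFP-mid were not whole. The deposited TPM, scaled by the authors to gene length, served for levels between genes and as an alternative, and the deposited FPKM was not used.

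CPM were computed with TMM factors over the 12 RNA libraries (1.01 in GFP-low, 1.05 in GFP-mid) in edgeR 4.0.16 under R 4.3.3. Genes averaging 1 CPM or more across all 12 libraries were tested, a pseudocount of 1 was added, and a gene was called from 2-fold. Where a library had 0 counts the fold was taken against 3 counts in that library. Of 679 genes in 29 lists, 669 were matched by RefSeq transcript or symbol. Named genes had at least 50 counts in the higher library, were no predicted locus, and were the 15 highest and 15 lowest by ratio; any list member could also be named. The comparison, the lists and the markers were chosen with earlier results of these data known. The steps were tested on simulated counts. The alternatives were DESeq2 1.42.0 size factors, library totals, the deposited TPM, pseudocounts of 0.1 and 5, other filters, a stricter call and leaving out predicted loci. A check of promoter GC content was void, since 71.1% of tested genes had a promoter window, under the 80% required. Intervals came from scipy 1.17.1, tables from pandas 2.3.3 and plots from matplotlib 3.10.9, under Python 3.11.15.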

Additional observations from a re-analysis of the deposited data

How the results depend on the processing

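Library scaling changed little: the share of calls that were higher in GFP-mid stayed between 83.1% and 87.5% with DESeq2 size factors, library totals and the deposited TPM, and the median over all genes moved by at most 0.04. The count of calls depended on how low genes were handled. With a pseudocount of 0.1, 1285 genes passed 2-fold between GFP-mid and GFP-low, 1006 higher and 279 lower, and with a pseudocount of 5 there were 186, of which 167 were higher and 19 lower. A filter at a mean of 10 CPM gave 282 (249 higher, 33 lower), and a counting interval wholly beyond 2-fold gave 258 (221 higher, 37 lower). For GFP-high against GFP-mid the same 4 settings gave 926 (489 higher, 437 lower), 98 (24 and 74), 99 (54 and 45) and 221 (87 and 134), and a filter over GFP-low and GFP-mid alone gave 413 (116 and 297). In 8 lists the median changed sign under some setting: FGF and ERK, myeloid, Sertoli and Leydig, endothelial, cell cycle control, DNA methylation and chromatin, mesenchymal transition, and p53. The GDNF median stayed negative, from -0.77 to -0.32. Stricter settings test or count fewer low genes by construction. All 30 named genes stayed past 2-fold with DESeq2 size factors, library totals, TPM and a pseudocount of 0.1, while a pseudocount of 5 kept 14 of the 15 higher and 9 of the 15 lower. Of 48 list genes past 2-fold, 48 stayed past it with DESeq2 size factors, 46 with library totals, 38 with TPM and 21 with a pseudocount of 5. No paired analysis was possible because each RNA group has 1 library. Depth limits genes near 3 counts, where 0 counts in GFP-low still allow 0.373 CPM.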

Other observations

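Several other lists held 1 to 3 genes past 2-fold. Of all genes tested, 4.13% passed it, 3.45% higher and 0.678% lower in GFP-mid. A single call among 17, 18 or 26 genes is near those shares. The AP-1 gene Jund (listed as Jund1) stood at 7.34 CPM in GFP-low, 30.6 in GFP-mid and 61.7 in GFP-high, a log2 ratio of mid over low of 1.92 [1.66, 2.48], and was the only one of 17 immediate early genes past 2-fold. Of 16 genes of the p53 response, 3 were higher, where 3.45% of all genes tested were: Phlda3, an AKT inhibitor (4.23 and 13.2 CPM), Gadd45a, a growth arrest gene (7.58 and 20.3 CPM), and Bbc3, the apoptosis gene PUMA (1.49 and 4.69 CPM). Edem1, which routes misfolded glycoproteins to degradation, was the only one of 26 stress genes past 2-fold, at 28.8 and 71.6 CPM, 1.28 [1.1, 1.53]. In the TGF-beta and Wnt list, the ligand Tgfb1 (0.746 and 3.26 CPM) and the Wnt receptor Fzd7 (17.9 and 43.4 CPM) were higher and Ccnd1 was lower, among 24 genes past the filter. Of 12 inflammatory genes, the chemokine Ccl7 was higher (0.373 and 2.14 CPM). Lcn2, lipocalin of the acute phase, was lower, as were 0.678% of all genes tested, at 55.6 CPM in GFP-low, 24.4 in GFP-mid and 3.19 in GFP-high, -1.16 [-1.40, -0.98]. The interferon list had a median of 0.30 over 18 genes, with Rsad2 alone past 2-fold (2.24 and 6.35 CPM).

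Gene families were also read by symbol, 64 in all, a grouping added after the values were seen and given without a test. Against 3.45% of all genes tested, 4 of 16 Klf genes (Klf4, Klf5, Klf9 and Klf13), 4 of 16 Kctd genes, 6 of 29 collagens and 4 of 20 heterogeneous nuclear ribonucleoprotein genes were higher in GFP-mid. The last group was Hnrpu, Hnrpab (136 and 398 CPM, 1.54), Hnrpl (26.9 and 81.2 CPM, 1.56) and Hnrpll (40.5 and 125 CPM, 1.60). Of 16 SR splicing factor genes, Sfrs1 (135 and 279 CPM) and Sfrs2 (198 and 484 CPM) were higher, at 1.05 and 1.29. Of 79 cytosolic ribosomal protein genes, Rpl27 alone was higher, and their median was -0.05.

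Genes whose listed transcript spans nearly all of the gene on the genome (a length ratio of up to 1.1, so with little or no intron) had a larger share of higher calls. Of 271 such genes, 22 (8.12%) were higher in GFP-mid and 2 (0.738%) were lower, whereas of the other 12459 genes with a genomic length 3.31% were higher and 0.642% lower. From GFP-mid to GFP-high the shares higher were 3.32% and 1.24%. This grouping too was added after the values were seen, the shares were not tested, and the medians of the groups were 0.03 and -0.01.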
